A study of Mus musculus with 16 samples.

Results

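The major histocompatibility complex (MHC) and interferon response families were examined in RNA sequencing of mouse hepatic stellate cells (HSCs), the vitamin A-storing cells of the liver sinusoid. Genes were taken by name: the H2 genes of the mouse MHC, the interferons, their receptors and the Ifi genes, the numbered Irf, Stat and Gbp genes, the Oas, Isg, Irgm and Gimap genes, and B2m, Tap1, Tap2, Psmb8 and Psmb9. Of 6193 distinct names in the comparisons of the series, 48 belonged to these families. All 48 were among the 5716 genes listed for quiescent HSCs (qHSCs), 1 was among the 568 listed for GFP-intermediate activated HSCs (aHSCs), and 0 were among the 231 listed for GFP-high aHSCs.

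MHC class I molecules sit on most nucleated cells and carry peptides from the cytosol to CD8+ T cells. MHC class II molecules are found mainly on B cells, dendritic cells and macrophages and carry peptides from endosomes to CD4+ T cells. Interferons bind surface receptors whose Janus kinases activate STAT factors, and STAT and IRF factors then switch on antiviral genes. Interferon gamma, made chiefly by T and NK cells, also raises the class II genes through the coactivator Ciita. In the liver, Kupffer cells, dendritic cells and sinusoidal endothelial cells all present antigen, and HSCs have been described to do so.

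The study asked whether HSCs that descend from the embryonic mesothelium differ from other HSCs, and what the transcription factor WT1 does in aHSCs. The 16 samples, all on the C57/Bl6 strain, came from HSCs that were isolated by density centrifugation and sorted by flow cytometry. From 3 uninjured WT1CreERT2;Ai14 animals, given in the study's methods as heterozygous for the Cre allele, in which tamoxifen-inducible Cre driven from the Wt1 locus switched on a red reporter (RFP) at E10.5, 3 lineage label-positive and 3 label-negative qHSC samples were taken. From 6 animals given carbon tetrachloride (CCl4) for 8 weeks, 10 samples of RFP positive aHSCs were sorted by the GFP that reports Wt1: 3 GFP-high and 2 GFP-intermediate samples from PDGFRbCre;WT1_+_GFP;Ai14 controls, which kept 1 working Wt1 allele, and as many from PDGFRbCre;WT1_fl_GFP;Ai14 animals, in which Cre driven by PDGFRb deleted it. In 1 GFP-intermediate control sample, 2 animals were pooled, and the labels write the GFP-intermediate state as low. The labels give all animals as male, whereas the study's methods give female animals for qHSC isolation after labelling at this stage, and the ages are not in the labels.

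The values were the authors' FPKM (sequenced fragments corrected for transcript length and library size), 1 for each group and only for genes that the authors called at an adjusted p-value of 0.05. For both WT1 deletion comparisons, the paper counts fewer differing genes than are listed here. Values per sample were not used here, so that no spread between animals, depth or test stands behind any value given here, and every listed gene differed by the choice of the list. A gene without an entry is therefore described as not listed, which does not show that its levels were alike. Group values were compared as the log2 ratio of label-positive to label-negative FPKM, or of WT1-deleted to control FPKM, without a pseudocount. In sorted populations, fewer cells of a type and less RNA per cell cannot be told apart.

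The promoters of members that represent both directions are shown first, because shared letters were found in them. Sequences are the 200 bases before the RefSeq start site in GRCm38.p6, read 5′ to 3′ on the gene's strand. Ifit1 (chr19:34640689-34640888, plus strand), Ifit3 (chr19:34583329-34583528, plus strand) and Isg15 (chr4:156200819-156201018, minus strand) encode antiviral proteins and were higher in label-positive qHSCs. Their capitals mark the core of the interferon-stimulated response element (ISRE), GAAANNGAA on either strand, the element bound by IRF and STAT complexes.

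Ifit1: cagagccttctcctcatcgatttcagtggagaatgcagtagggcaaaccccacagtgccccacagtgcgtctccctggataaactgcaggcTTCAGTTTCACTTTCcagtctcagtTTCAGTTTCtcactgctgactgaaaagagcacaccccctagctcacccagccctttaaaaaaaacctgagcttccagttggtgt

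Ifit3: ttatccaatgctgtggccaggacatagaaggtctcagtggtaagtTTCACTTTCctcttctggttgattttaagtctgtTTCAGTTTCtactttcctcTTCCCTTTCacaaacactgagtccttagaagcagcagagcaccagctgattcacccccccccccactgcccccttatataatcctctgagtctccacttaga

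Isg15: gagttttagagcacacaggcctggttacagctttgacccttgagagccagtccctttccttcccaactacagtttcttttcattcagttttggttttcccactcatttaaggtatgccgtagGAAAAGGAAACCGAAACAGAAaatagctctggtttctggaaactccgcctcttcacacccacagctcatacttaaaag

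H2-Aa (chr17:34287824-34288023, minus strand), H2-Eb1 (chr17:34305667-34305866, plus strand) and H2-DMb1 (chr17:34152991-34153190, plus strand) encode class II chains and a chain of the exchange factor that loads them, and were lower in label-positive qHSCs. Their capitals mark CCAAT on either strand, the letters of the Y box of class II promoters. CCAAT is not particular to the lower members: the Ifit3 promoter above also holds it, 196 bases before the start, in small letters.

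H2-Aa: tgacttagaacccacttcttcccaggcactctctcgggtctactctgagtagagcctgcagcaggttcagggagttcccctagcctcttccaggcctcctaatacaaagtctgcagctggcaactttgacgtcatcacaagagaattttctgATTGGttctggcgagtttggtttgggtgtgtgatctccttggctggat

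H2-Eb1: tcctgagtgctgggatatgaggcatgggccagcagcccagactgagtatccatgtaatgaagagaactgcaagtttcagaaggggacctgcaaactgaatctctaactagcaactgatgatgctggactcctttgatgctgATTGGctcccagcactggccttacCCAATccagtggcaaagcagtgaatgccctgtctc

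H2-DMb1: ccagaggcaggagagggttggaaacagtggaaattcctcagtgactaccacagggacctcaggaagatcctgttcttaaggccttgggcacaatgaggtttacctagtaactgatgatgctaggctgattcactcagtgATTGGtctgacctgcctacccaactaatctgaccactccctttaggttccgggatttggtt

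Of the protein-coding genes whose GENCODE vM21 name falls in these families, 49 of 150 were listed for qHSCs (32.7%), beside 22.4% of all protein-coding genes.

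In qHSCs, 35 of the 48 members were lower in label-positive than in label-negative cells (72.9%), whereas 49.6% of all 5716 listed genes were lower. The other 13 members were higher (27.1%, beside 50.4% of all listed genes). The lower members held every listed MHC gene, the interferon gamma gene and its receptor chain, and Stat4. They also held genes of antiviral families, such as Oas3, Ifitm1 and Ifit1bl1. Outside the H2 genes, 18 of 31 members were lower. The higher members were antiviral effector genes, the RNA sensor gene Ifih1 and Irf1. The median log2 ratio was -1.41 over the members and 0.64 over all listed genes, for which the ratio of the median FPKM was -0.42 on the log2 scale.

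The size of the difference also depended on its direction, among the members as among all listed genes. Of the members, 20 were at least 4-fold lower in label-positive cells (41.7%, beside 26.1% of all listed genes), and 8 were at least 2-fold higher (16.7%, beside 37.7%). These shares also reflect the larger share of lower members. Among lower genes alone, 20 of 35 members and 1493 of 2833 listed genes were at least 4-fold lower. The lower members had a median log2 ratio of -2.30, and all lower genes one of -2.02. The higher members lay close together, between 0.73 and 1.72 with a median of 1.48, beside 1.31 for all higher genes. The plot of FPKM by family shows the MHC genes on 1 side and the antiviral families split or on the other.

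**Figure D1:**
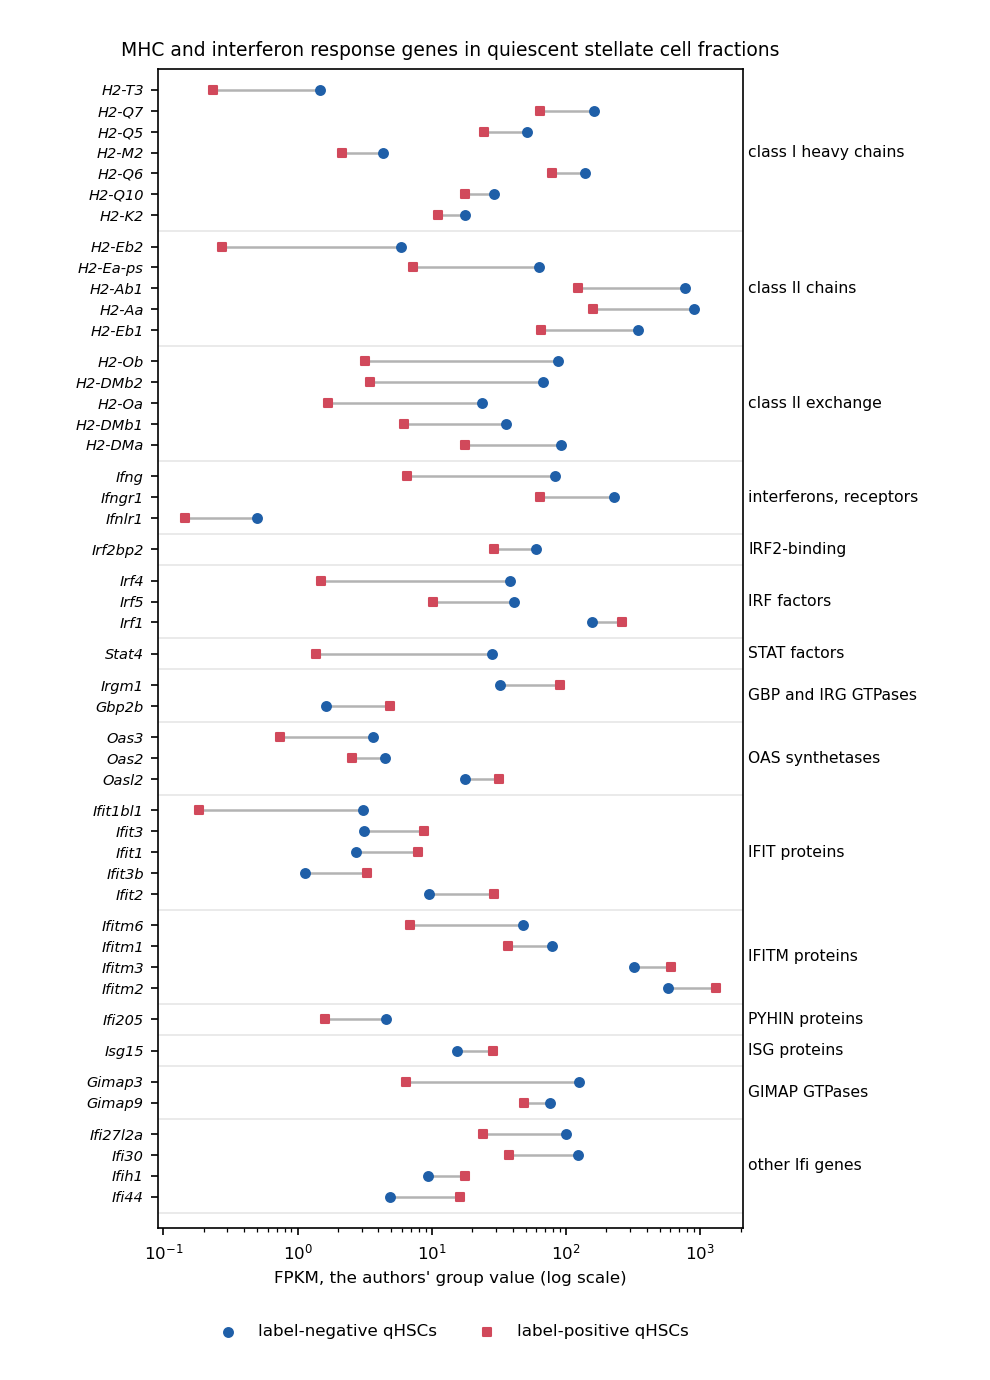
FPKM of the members reported singly in label-negative (blue circles) and label-positive (red squares) qHSCs on a log axis, grouped by family, 1 group value of the authors for each point and no error. All 17 H2 genes have the red square to the left of the blue circle, and 4 of 5 IFIT genes have it to the right.

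Of the MHC class II genes, which encode the peptide-binding chains and the chaperones that fill them, all 10 listed were lower in label-positive qHSCs. H2-Aa, the alpha chain of I-A, had 903 FPKM in the label-negative and 159 FPKM in the label-positive fraction. Its partner beta chain H2-Ab1 had 765 and 124. The beta chain of I-E, H2-Eb1, had 341 and 65.4. These 3 genes were therefore between 5.21-fold and 6.18-fold lower, and H2-Aa went from rank 47 to rank 330 among the listed genes by FPKM. Over the 5 chain genes the FPKM summed to 2078 without the label and to 356 with it, and these 3 main chains still stood within the first 797 of the 5716 listed genes by FPKM in label-positive cells.

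H2-Eb2, a little-used beta chain gene, was low in both groups (FPKM of 5.91 and 0.271). H2-Ea-ps, the alpha chain gene of I-E, had an FPKM of 63.0 and 7.22, although mice of the b haplotype such as C57BL/6 make no such protein, and GENCODE annotates it as a polymorphic pseudogene.

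The exchange chains H2-DM and H2-DO, which edit and restrain peptide loading in endosomes, were lower by a median log2 ratio of -3.82 (5 of 5 lower), beside -2.63 for the class II chains. H2-Ob, the beta chain of H2-DO, had 87.7 FPKM in the label-negative and 3.15 FPKM in the label-positive fraction, a ratio of 27.8-fold and the largest among the members. H2-Oa, the alpha chain, had 23.9 and 1.68. H2-DMb2 had 67.0 and 3.48, while the neighbouring H2-DMb1 had 35.8 and 6.19 and H2-DMa had 91.7 and 17.8. Both chains of H2-DO, which is known mainly from B cells, thus had larger ratios than H2-DMa and H2-DMb1. H2-DMb2, however, was 19.2-fold lower, a larger ratio than that of H2-Oa (14.2-fold), so H2-DO and H2-DM did not separate by ratio. H2-DMb1 and H2-DMb2 share sequence (27.2% and 29.5% of their 50-base stretches occur in another gene, most in each other), and how the authors' counting split shared reads is not given in the sources used here.

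Of the class I heavy chains, all 7 listed were lower, by less (median log2 ratio -1.02, from -2.63 to -0.67). H2-Q7, which encodes the Qa-2 antigen, had 160 FPKM in the label-negative and 64.2 FPKM in the label-positive fraction. H2-Q6 had 138 and 79.3, and H2-Q5, which GENCODE annotates as a polymorphic pseudogene, had 51.0 and 24.5. H2-Q10, a secreted class I molecule of the liver, had 29.3 and 17.6. The Q genes are near copies of one another and of other class I genes, with between 19.7% and 35.4% of their 50-base stretches found in another gene, and their values are uncertain for that reason. H2-T3, the thymus leukaemia antigen, had an FPKM of 1.46 and 0.236, and H2-K2, a transcribed pseudogene, had 17.7 and 11.1. Of the 50-base stretches of H2-K2, 10.9% are found in another gene.

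The classical class I genes H2-K1 and H2-D1 were not listed. Nor were any of the genes that complete or fill class I, namely the light chain B2m, the peptide transporters Tap1 and Tap2 and the immunoproteasome subunits Psmb8 and Psmb9 (0 of 5). H2-M2, a class I gene outside the classical set, had 4.32 FPKM in the label-negative and 2.13 FPKM in the label-positive fraction.

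Among ligands and receptors, Ifng, the gene of interferon gamma, had 83.4 FPKM in the label-negative and 6.49 FPKM in the label-positive fraction. Ifngr1, the chain that binds it, had 226 and 64.2. Ifnlr1, the receptor chain for interferon lambda, was below 1 in both (0.499 and 0.145). No type I interferon gene and neither chain of the type I receptor was listed.

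The transcription factors divided. Irf4, which guides lymphocyte and dendritic cell programmes, had 38.5 FPKM in the label-negative and 1.49 FPKM in the label-positive fraction (25.9-fold lower). Irf5, a factor of macrophages and B cells, had 41.3 and 10.2. Irf1, which interferon gamma induces in most cell types, was the only member of the Irf family listed as higher, with 157 and 260. Irf2bp2, a corepressor that binds IRF2, had 60.2 and 29.2.

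Stat4, which carries interleukin-12 signals in T and NK cells, had an FPKM of 28.3 and 1.37, and was thus 20.7-fold lower in label-positive cells. Of its 50-base stretches, 28.6% occur in another annotated gene, so that its level is uncertain. Stat2 and Irf9, which act together on the ISRE, were not listed.

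The IFIT genes, whose proteins bind viral RNA and restrict its translation, were higher in 4 of 5 cases. Ifit2 had 9.61 FPKM in the label-negative and 28.8 FPKM in the label-positive fraction. Ifit3 had 3.14 and 8.78, and Ifit1 had 2.74 and 7.91. Ifit3b had 1.13 and 3.29. These 4 log2 ratios lay between 1.48 and 1.59. Ifit3 and Ifit3b share 51.2% and 45.0% of their 50-base stretches, most with each other, and may not be separate measurements. Ifit1bl1, in the same cluster on chromosome 19, ran the other way (FPKM of 3.06 and 0.185).

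The IFITM genes, which encode membrane proteins that block the entry of viruses, were the most abundant of the higher members and split by gene. Ifitm2 had 577 FPKM in the label-negative and 1310 FPKM in the label-positive fraction, and stood at rank 10 of the listed genes in the latter. Ifitm3 had 323 and 608. Ifitm1, in contrast, had 78.0 and 36.7, and Ifitm6, which is known from myeloid cells, had 47.5 and 6.86. All 4 lie on chromosome 7, where neighbours thus differed in direction. Ifitm2 shares 48.5% of its 50-base stretches with another gene, most with Gm45717, and its level is uncertain for that reason.

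Of the other antiviral effectors, Irgm1, a GTPase that acts on vacuoles holding microbes, had 32.0 FPKM in the label-negative and 89.5 FPKM in the label-positive fraction. Gbp2b, a guanylate-binding protein gene, had 1.63 and 4.91. Isg15, a ubiquitin-like modifier, had 15.5 and 28.6. These 3 genes were higher in the label-positive fraction. The other guanylate-binding protein genes were not listed.

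Ifi44 had the largest ratio of the higher members, with an FPKM of 4.90 and 16.2 (3.30-fold). Ifih1, the RNA sensor MDA5, had 9.36 and 17.6. The oligoadenylate synthetases, which detect double-stranded RNA, were split. Oas3 had an FPKM of 3.66 and 0.745, and Oas2 had 4.48 and 2.56, both lower in label-positive cells. Oasl2, a relative of these enzymes, was higher with 17.7 and 31.5.

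The remaining members were lower in label-positive cells. Ifi30, the lysosomal reductase that unfolds antigens for class II loading, had an FPKM of 123 and 37.4. Ifi27l2a, an interferon-induced membrane protein gene, had 101 and 24.1. The GIMAP GTPases are known for the survival of lymphocytes. Gimap3 had 125 and 6.45, while Gimap9 had 76.5 and 48.8. Ifi205, of the PYHIN family of nucleic acid sensors, had 4.54 and 1.61. Gimap3 was 19.3-fold lower and Gimap9 1.57-fold lower, so that members of a single family on chromosome 6 differed widely in the size of the difference.

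Genes outside the families that take part in the same pathways were drawn from fixed lists. Of 23 antigen presentation partners, 10 were listed, of which 7 were lower and 3 higher in label-positive cells. Of all listed genes, 49.6% were lower. Cd74, the invariant chain that guards the class II groove, had 1960 FPKM in the label-negative and 329 FPKM in the label-positive fraction. Ciita, the class II coactivator, had 12.4 and 1.51, and Nlrc5, its class I counterpart, had 33.0 and 8.55. The costimulatory genes Cd40, Cd80 and Cd86 and the protease Ctss were the other lower genes. Those higher were Lgmn and Ctsl, which encode endosomal proteases, and Mr1, which presents microbial metabolites. Tapbp, the chaperone that links class I to the peptide transporter, was not listed.

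Of 46 interferon signalling and response partners, 21 were listed, of which 15 were higher and 6 lower, the opposite balance to that of the members. Of all listed genes, 50.4% were higher. Cxcl10, a chemokine induced by interferons, had 74.0 FPKM in the label-negative and 407 FPKM in the label-positive fraction, and Cxcl9 had 12.5 and 48.6. The kinase gene Jak1 had 214 and 377. The feedback inhibitors of the pathway were both higher, Socs3 with 162 and 454 and Socs1 with 27.8 and 44.4. Bst2, which tethers virus particles, had 170 and 298, and the antiviral gene Rsad2 had 6.15 and 14.2.

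Mx1, an antiviral GTPase, had an FPKM of 4.46 and 0.887, whereas Mx2 was higher with 5.38 and 14.1. The other lower partners were Zbp1, Samhd1, Ikbke, Tlr7 and Tlr9. Jak2, Tyk2 and Usp18 were not listed. The 21 partners had a median log2 ratio of 0.81, beside 0.64 over all listed genes.

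**Figure D2:**
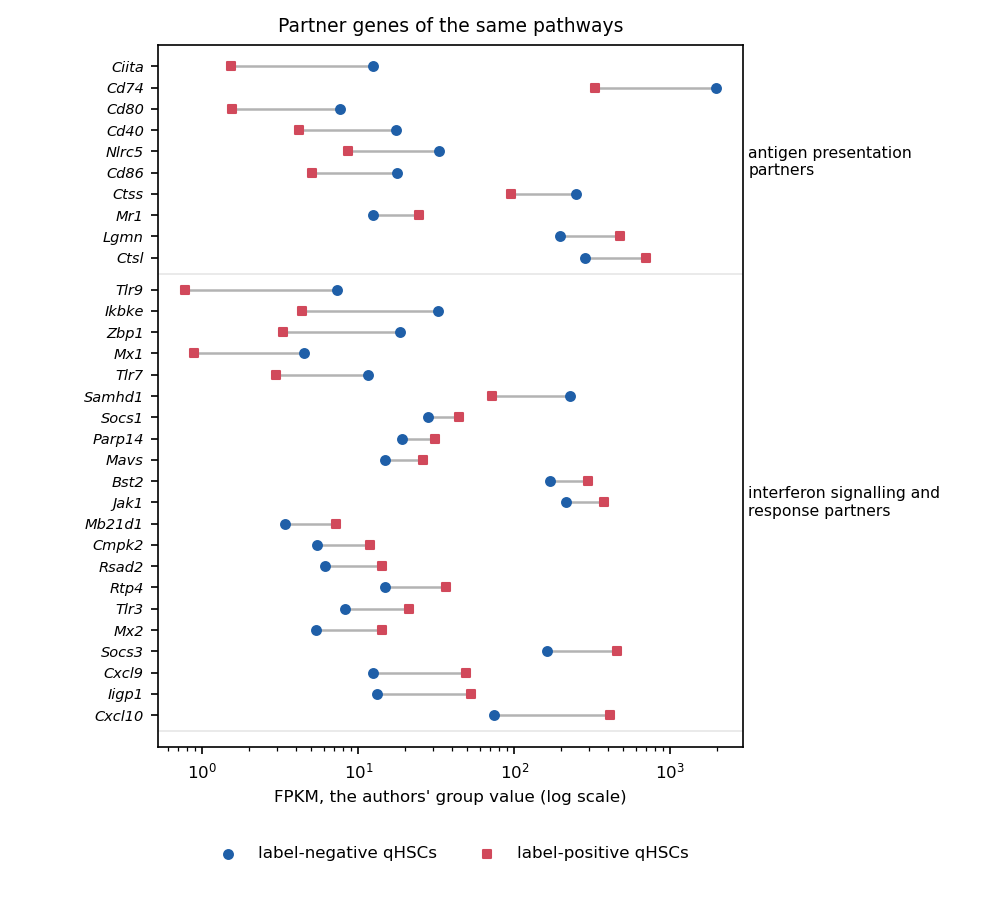
FPKM of the 31 listed partner genes in label-negative (blue circles) and label-positive (red squares) qHSCs on a log axis, 1 group value of the authors for each point and no error, ordered by ratio within each list. Of the antigen presentation partners 7 of 10 lie lower in label-positive cells, and of the interferon partners 15 of 21 lie higher.

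Markers of other liver cell types ran with both directions. All 17 T lymphocyte genes were listed and lower in label-positive cells (summed FPKM of 1285 and 48.3), as were all 14 B lymphocyte genes (885 and 39.5) and all 12 NK and cytotoxic cell genes (1325 and 57.3). Of 13 neutrophil genes, 12 were listed, all lower (2451 and 490), and of 15 dendritic cell genes 12 were listed, 10 of them lower (584 and 421). Their medians on the log2 scale were -5.13, -5.31, -4.28, -2.32 and -2.20. The label-negative fraction therefore carried more lymphocyte, neutrophil and most dendritic cell transcript, by FPKM, than the label-positive fraction.

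In the other direction, 20 of 21 sinusoidal endothelial genes were listed, all higher in label-positive cells (summed FPKM of 6186 and 16964), and 15 of 16 hepatocyte genes were listed, all higher (251 and 1682). Macrophage genes were mixed: of 19 names, which include Emr1 as the older name of Adgre1, 15 were listed, with 11 higher and 4 lower. Kupffer cell genes such as Clec4f (FPKM of 34.2 and 166) were among the higher and Lyz2 (1283 and 289) among the lower. No listed marker was at 0 in either group. Of 20 qHSC markers, 10 were listed, 5 in each direction, and the defining genes Lrat, Reln and Des were not. Pdgfrb, a further HSC marker, stood below 1 FPKM in both fractions (0.905 and 0.370). Of 13 activated HSC genes, 8 were listed, 6 lower and 2 higher in label-positive cells (summed FPKM of 644 and 336, median log2 ratio -1.27).

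The members were set beside the span of log2 ratios of each marker list, and the spans overlap widely. Of the 35 lower members, 9 lay within the span of the T lymphocyte genes (-5.95 to -3.63) and the same 9 within that of the NK genes: H2-Eb2, H2-Ob, H2-DMb2, H2-Oa, Ifng, Irf4, Stat4, Ifit1bl1 and Gimap3. Of these 9, H2-Eb2 and Ifit1bl1 stood at only 0.271 and 0.185 FPKM in label-positive cells. With a pseudocount of 1 their log2 ratios were -2.44 and -1.78, so their place in these spans is uncertain. The wider spans held more of the lower members: 18 for B lymphocytes, 20 for neutrophils, 31 for dendritic cells, 17 for macrophages, 28 for qHSC genes and 13 for activated HSC genes. The class II chains H2-Aa, H2-Ab1 and H2-Eb1 (-2.50, -2.63 and -2.38) lay near the median of the dendritic cell and neutrophil genes. The 7 class I genes, apart from H2-T3, lay nearer to 0 than all listed T, B, NK and neutrophil genes.

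Of the 13 higher members, 7 lay within the span of the sinusoidal endothelial genes (1.28 to 1.86), and the same 7 within that of the hepatocyte genes: Irgm1, Gbp2b, Ifit3, Ifit1, Ifit3b, Ifit2 and Ifi44. The other 6, Irf1, Oasl2, Isg15, Ifih1, Ifitm3 and Ifitm2, were higher by less than any listed endothelial gene. All 13 lay within the spans of the macrophage, qHSC and interferon partner genes, and 6 within those of the dendritic cell and activated HSC genes. These lists hold genes of both directions, so their wide spans take in higher and lower members alike and cannot tell cell types apart. The part of these cell types in the members' differences was not tested.

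**Figure D3:**
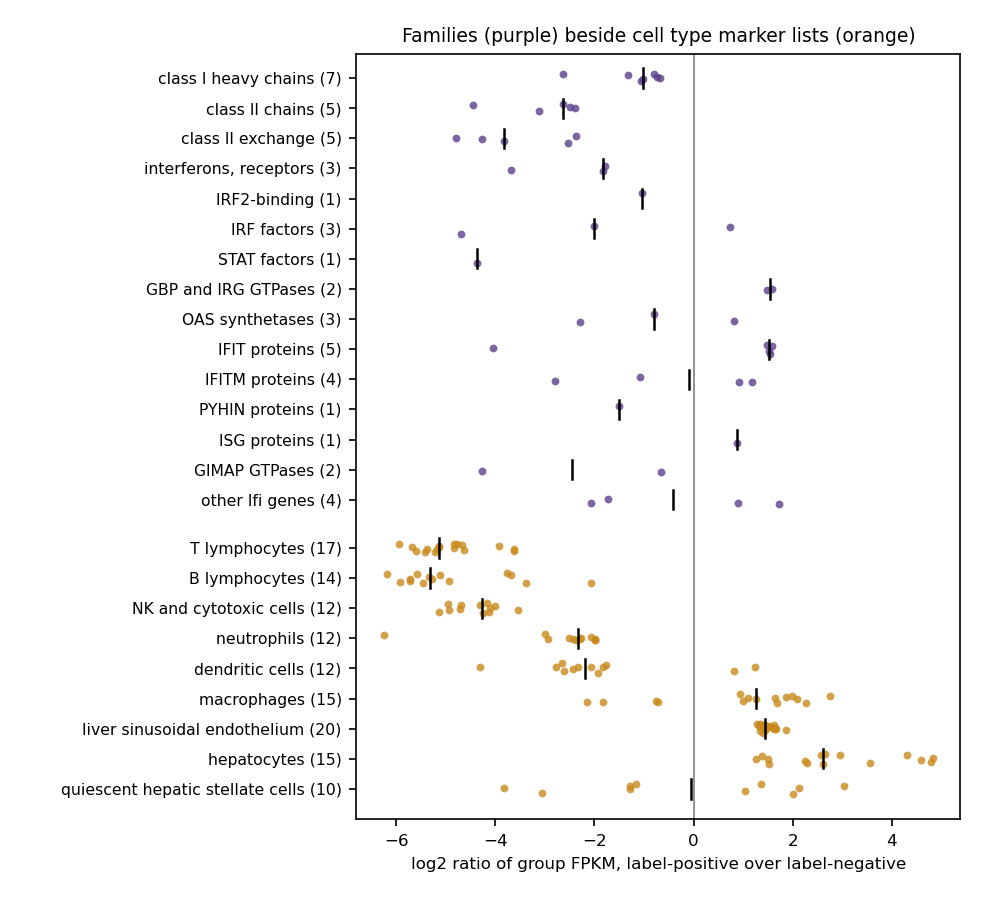
Log2 ratio of label-positive to label-negative FPKM for each member reported singly, by family (purple) and each listed marker gene by cell type (orange), with the number of genes in brackets and a black bar at the median. Points are spread vertically at random for sight only. The medians of the class II and exchange chains lie between those of the dendritic cell and the lymphocyte genes, and the IFIT genes, except 1, lie within the spans of the endothelial, hepatocyte, macrophage and qHSC genes.

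Letters shared by the promoters were counted in the 250 bases before the start site, on both strands, for the 41 members in the RefSeq table. The ISRE core was found in 8 of the 13 higher members (61.5%), in 5 of 28 lower members (17.9%) and in 8.18% of all 27025 genes of the table. The 8 were Ifit1, Ifit3, Ifit3b, Isg15, Irgm1, Gbp2b, Ifitm2 and Ifih1. Ifit3 and Ifit3b hold the same 3 core sequences in the same order, so they may not count as separate cases. The 5 lower members were Ifit1bl1, Oas3, Stat4, Ifi205 and Irf2bp2, which are 5 of the 15 lower members outside the H2 genes (33.3%). The sites of the printed promoters are close to the start: their first bases lie 84 to 109 bases before it in Ifit1, 102 to 155 in Ifit3 and 66 to 78 in Isg15. In Ifit1, Isg15, Irgm1 and Oas3, neighbouring cores overlap each other (5 pairs in all), and no site of 1 motif overlaps a site of another.

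The gamma-activated site TTCNNNGAA, the letters bound by STAT dimers after interferon gamma, was found in 2 of 13 higher members (15.4%, Irf1 and Ifit2) and in 3 of 28 lower members (10.7%), beside 8.13% of all genes. CCAAT was found in 8 of the 8 class II and exchange chain genes in the table, beside 37.5% of all genes. It was found in 53.8% of the higher members and in 57.1% of the 28 lower members, but in 33.3% of the 15 lower members outside the H2 genes. The ISRE core was found in 0 of these 8 genes and in 0 of 5 class I genes. The letters are a description of these windows, and a match is not evidence of binding.

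**Figure D4:**
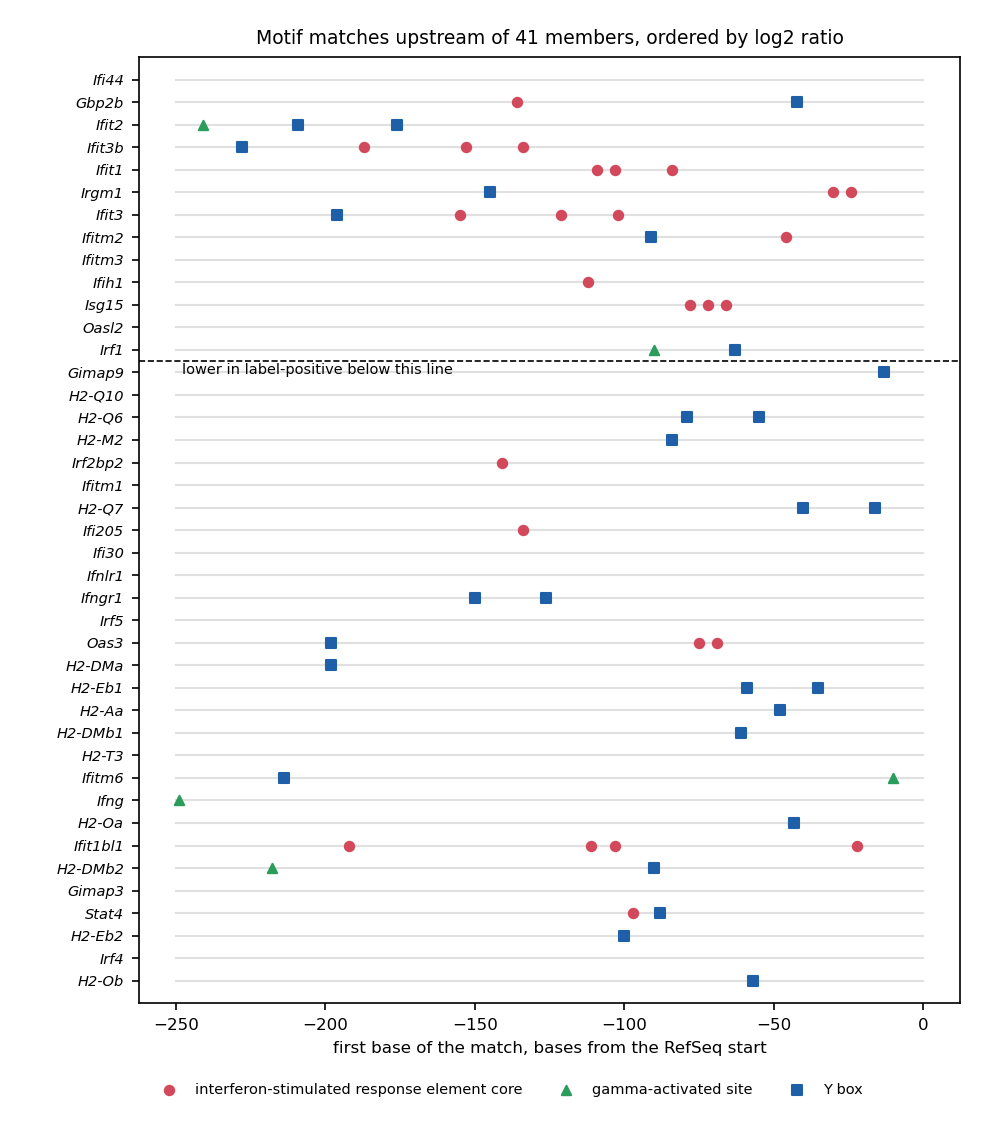
Position of the first base of each match to the ISRE core (red circles), the gamma-activated site (green triangles) and CCAAT, the Y box letters (blue squares), in bases from the RefSeq start, for 41 members ordered from the most lower (bottom) to the most higher (top) log2 ratio. Matches from all start sites of a gene are drawn on 1 line. Red circles stand at 8 of 13 genes above the dashed line and at 5 of 28 below it.

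In aHSCs after CCl4, H2-M2 was the only member listed for either WT1 deletion comparison. These lists were short, with 568 genes for the GFP-intermediate and 231 for the GFP-high fraction, beside 5716 for qHSCs. The small number of members is therefore not read as a result about the families. In the GFP-intermediate fraction H2-M2 stood at 15.1 FPKM in controls and at 4.68 FPKM after deletion. The log2 ratio was -1.69, in a comparison where 67.3% of the 568 listed genes were lower. The paper counts fewer differing genes for this comparison, with nearly as many raised as lowered. The median log2 ratio of all listed genes was -1.33 there. H2-M2 thus lay on the side of most listed genes, somewhat beyond their median. It was also lower in label-positive than in label-negative qHSCs, but the 2 comparisons differ in cells, injury and genotype.

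Macrophage transcripts ran the same way in that comparison. Of 19 macrophage gene names, 12 entries were listed, with C1qb and C1qc in a joint entry. All were lower after deletion (summed FPKM of 3675 in controls and 870 after deletion, median log2 ratio -1.95), with C1qa at 609 and 121. The 3 listed sinusoidal endothelial, 2 dendritic and 6 neutrophil entries were lower as well, and 3 activated HSC genes were higher. A dendritic entry is joint for Clec9a and Clec1b, so its value is not that of Clec9a alone. Of the antigen presentation partners, Ctss alone was listed, with an FPKM of 1799 and 486. The part of these cells in the difference of H2-M2 was not tested. In the GFP-high fraction, where 0 members were listed, no antigen presentation or interferon partner was listed either. Only 231 genes were listed there, beside 5716 for qHSCs, so these absences say little about the families.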

How the data were processed

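RNA from 16 samples of sorted HSCs was sequenced by the authors on an Illumina HiSeq. Per the study's methods, reads were mapped with bowtie 2 and tested with Cuffdiff2 at an adjusted p-value of 0.05; the submitters' processing notes name TopHat2 2.0.3, Cufflinks 2.0.1, DESeq2 and the builds mm9 and mm10 without a role. The annotation is not given in the sources used here. The authors deposited 1 FPKM per group for called genes, beside their own fold change, test statistic, p-value and q-value, none of which is printed; the q-value was read only to check that all rows of the 3 comparisons lay below 0.05. Depth is unknown, and no test was made.

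Members were matched by name, and log2 ratios were computed without a pseudocount. The members, the partner and marker lists and the motifs were chosen with earlier results of these data known. For 1 member no value of its own is reported here. The genes named were the 3 of each family with the highest FPKM, the 5 largest rises and falls on log2(FPKM + 1), members listed for WT1 deletion and a set of partners; the other genes were named after their values were seen. Stretches of 50 bases shared between genes were counted in the GENCODE vM21 transcripts. Alternatives were pseudocounts of 1 and 0.1, a minimum FPKM of 1 in the group with more, a 2-fold difference, entries naming 1 gene, each name once, and division by the group's median. The scripts were tested on simulated data (Python 3.11.15 with numpy 2.4.6, pandas 2.3.3 and matplotlib 3.10.9).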

Additional observations from a re-analysis of the deposited data

How the results depend on the processing

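The counts of 13 higher and 35 lower members in qHSCs stayed within 1.5 times under the alternatives, except that 8 members were higher by at least 2-fold; 29 were lower by at least 2-fold, and 34 were lower with a minimum FPKM of 1 in the group with more. The members' median log2 ratio in qHSCs, -1.41 as reported, was -1.05 with a pseudocount of 1, -1.31 with one of 0.1, -1.32 with that minimum, -2.06 among members differing by at least 2-fold and -0.99 after division by each group's median over all listed genes. The ratio of H2-M2 in GFP-intermediate aHSCs, -1.69 as reported, was -1.50 with a pseudocount of 1, -1.67 with one of 0.1 and -1.46 after division by the median. Only division by the group's median could change a member's direction, and it reversed 0 of 49 single values. The other alternatives keep the sign of a ratio or leave the gene out, so they could not reverse a direction. The GFP-high comparison gave no median because 0 members were listed. No paired analysis was possible because the values used are 1 per group, although both qHSC fractions came from the same 3 animals, and no replicate could be left out. Unlisted genes were not analysed here, so counts describe called genes and not the families as a whole.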

Other observations

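Among protein-coding genes by GENCODE name, how much of each family was listed for qHSCs differed. The class II chain and exchange chain genes were all listed (4 of 4 and 5 of 5), as were 5 of 6 IFIT genes. In contrast, 3 of 26 interferon and receptor genes (11.5%) and 2 of 13 GBP and IRG genes (15.4%) were listed. For 5 of 24 class I heavy chain genes (20.8%) and 3 of 11 OAS genes (27.3%) the share was near the 22.4% of all protein-coding genes.

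The 49 listed protein-coding genes counted by GENCODE name take in 5 genes of the PYHIN family that the deposited entries give under older names and that were not among the 48 members; they are named here after their values were seen. All 5 were lower in label-positive qHSCs. Pyhin1, now Ifi209, had 17.7 FPKM in the label-negative and 0.957 FPKM in the label-positive fraction. BC094916, now Ifi214, had 5.68 and 0.182, and Gm4955, now Ifi206, had 5.43 and 0.532. Pydc4, now Ifi213, had 13.8 and 2.29, and Pydc3, now Ifi208, had 9.41 and 4.01. A further entry under an older name, Gm16340, is now the pseudogene Ifi203-ps and was higher, with 7.90 FPKM in the label-negative fraction and a log2 ratio of 1.02.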
